A study of Solanum lycopersicum with 8 samples.

Results

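The dependence of the gibberellin response on genotype was measured in tomato (Solanum lycopersicum) as the log2 change of each transcript after GA3 in the mutant pro∆GRAS minus its change in the cultivar M82. All 8 libraries of the series, 2 in each of 4 groups, entered this difference. Young leaves were taken from M82 and from pro∆GRAS seedlings that had all received paclobutrazol, at 10 mg/l once a day for 3 days. Some seedlings of each genotype were then given a single dose of 100 µM GA3 and harvested 3 hours later, and the others went without it. No plants free of paclobutrazol are among the libraries, so each change is that of GA3 on leaves treated with an inhibitor of gibberellin synthesis. Whether a library came from 1 plant or from a pool is not stated, and p-values therefore measure only the spread between these libraries.

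Gibberellins are plant hormones that promote growth, and GA3 is one of the active forms. Paclobutrazol blocks an early oxidation step of gibberellin synthesis. The hormone binds the receptor GID1, and the complex then captures DELLA proteins, nuclear repressors of gibberellin responses, which are marked for destruction by an F-box protein. PROCERA is the tomato DELLA, and procera mutants such as pro∆GRAS, which the deposited table calls "null", grow as if treated with the hormone. A response to GA3 that passes only through DELLA would have nothing left to act on in such a mutant, and the comparison asks which changes are lost, kept or reversed there.

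The deposited table gives tomato gene identifiers (Solyc numbers) without gene names, and 0 of the 34722 identifiers matched the RefSeq gene table of 41476 genes used here. Genes are therefore given by identifier, at most 2 in each direction of a response class, with no name or function. The level of the PROCERA transcript, the markers of leaf cell types and lists of hormone genes were, for that reason, not analysed here. Total counts ran from 14395465 to 18483028 per library, and 18340 genes passed the filter on low counts. In M82 library 3 without GA3 and M82 library 2 with GA3 the 100 most abundant genes held 45.5% and 50.3% of all reads, and the share ranged from 31.4% to 41.3% elsewhere. In bulk leaves, fewer cells of a type and less RNA per cell cannot be told apart.

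Over all genes, the difference of the GA3 effects was small and imprecise. Of 16182 genes whose mean reached 1 CPM (reads per 1000000 reads of a library, with TMM scaling), 738 had a GA3 change at least 1 log2 unit lower in the mutant than in M82 and 676 one at least 1 unit higher. The median standard error (SE) of the difference over these genes was 0.458 log2 units. At least 3 units lower were 7 genes and at least 3 units higher were 13. The 2 directions were thus about equally filled.

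With edgeR's quasi-likelihood test, 0% of the 18340 genes passed an adjusted p of 0.05 in either direction, the smallest adjusted p being 0.546. An unadjusted p under 0.05 was reached by 689 genes, where 917 are expected if no gene differs. limma-voom also called 0 genes. DESeq2 called 20, of which 14 (0.0763% of the genes tested) had a lower and 6 (0.0327%) a higher GA3 effect in the mutant. The DESeq2 count depends on single libraries. It was 98 without M82 library 1 without GA3, 13 without M82 library 3 without GA3, and 4 and 3 without M82 libraries 1 and 2 with GA3. It was 2 and 10 without mutant libraries 1 and 3 without GA3, and 19 and 11 without mutant libraries 1 and 3 with GA3. Of the 20 genes, between 1 and 17 were called again when a library was left out, while all 20 kept the sign of the difference each time.

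The 14 genes with a lower effect in the mutant had differences of -2.90 to -1.64 log2 units and mean levels of 6.75 to 163 CPM. DESeq2 called 13 of them for GA3 in M82, where it called 0.502% of the genes tested as higher and 0.0872% as lower. It called 0 of them for GA3 in the mutant, where it called 0.147% as higher and 0.0109% as lower. edgeR called 0.0164% of the genes as higher after GA3 in M82, 0% as lower, and 0% in the mutant. For the 6 with a higher effect, differences ran from 2.15 to 5.60, and 2 were called for GA3 in M82 and 2 in the mutant. By the classes described next, 9 of the 14 were lost, 4 reversed and 1 in no class, and of the 6, 1 was lost, 3 reversed and 2 in no class. None of the 20 was a gene whose change was kept or gained. The difference that chose these 20 genes contains both GA3 changes, and those changes also set the classes. Nothing is therefore read from the counts among the 20.

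Genes were sorted into 4 response classes by the size, direction and overlap of their changes, without a test, among the 16182 with a mean of at least 1 CPM. A change was called lost where the M82 groups did not overlap, the M82 log2 change was at least 1 and that in the mutant was under 0.5 either way. It was called kept where neither genotype's groups overlapped and both changes were at least 1 in the same direction. Reversed genes had groups that did not overlap and opposite changes of at least 1.5-fold each, and gained genes met the rule for lost with the genotypes exchanged. Since these measured changes chose the members, the class values are descriptions and carry no test. With 2 libraries a group, overlap is a weak criterion: 19.6% of the genes had M82 libraries that did not overlap and were higher after GA3, and 16.6% were lower, against 14.1% and 15.0% in the mutant.

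**Figure D1:**
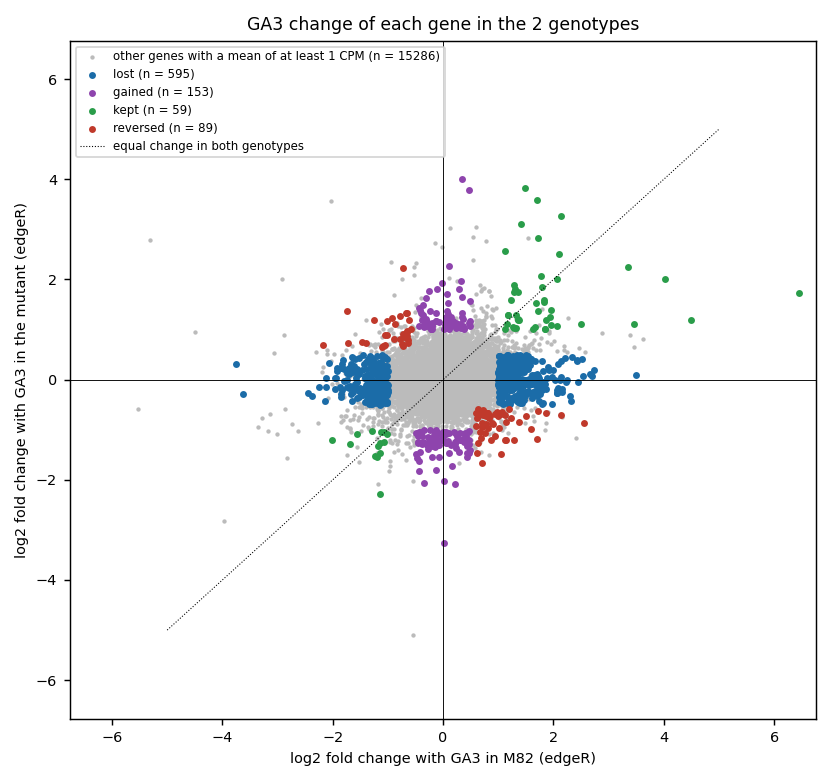
Each point is a gene whose mean reached 1 CPM, placed by its log2 fold change with GA3 in M82 (horizontal axis) and in the mutant (vertical axis), coloured by response class. The 595 lost genes form bands to the left and right near zero on the vertical axis, and the 59 kept genes lie around the dotted line of equal change, mostly in the upper right.

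Most genes that moved with GA3 in M82 hardly moved in the mutant. In M82, 493 genes (3.05% of 16182) were higher after GA3 by at least 1 log2 unit with no overlap, and 338 of these (68.6%) changed by under 0.5 in the mutant. Their counterparts in the other direction were 352 genes (2.18%), of which 257 (73.0%) were flat in the mutant. A change under 0.5 is also the common case in the mutant, where it held for 86.7% of all 16182 genes, so the lost share lay below the background. Among the 493, the median change was 1.31 in M82 and 0.13 in the mutant (quartiles -0.18 and 0.47). Among the 352 it was -1.24 in M82 and -0.12 in the mutant (quartiles -0.40 and 0.20). Because the genes were chosen on their M82 values, their M82 change, and with it the share that is lost, may be overstated.

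At a mean of at least 1 CPM, the share that also moved in the mutant was larger than the background both ways. Moved here means in the same direction and by at least 1 log2 unit. Of the 493 genes higher in M82, 45 (9.13%) were also higher by at least 1 without overlap in the mutant, where 1.08% of all genes met that rule. Of the 352 lower in M82, 14 (3.98%) were also lower in the mutant, against 0.983% of all genes. A change of at least 1 without overlap in the opposite direction was met by 5 (1.01%) of the 493 and by 3 (0.852%) of the 352. The GA3 effects of M82 and of the mutant share no library. This background was not matched for level. A mean of 10 CPM was reached by 27.4% of the 493 and 26.1% of the 352, against 51.5% of all genes. At that level, 15 of 135 genes higher in M82 were also higher in the mutant, but only 1 of 92 lower genes was also lower. The larger share among lower genes was thus seen only with genes of low level included.

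The same kept genes can be set against the genes moved in the mutant. There, 175 genes were higher after GA3 by the same rule, and the 45 kept genes are 25.7% of them, where 3.05% of all genes met the rule in M82, while 67 (38.3%) were flat in M82. Of the 159 lower in the mutant, 14 (8.81%) were kept, against 2.18% of all genes in M82, and 86 (54.1%) flat in M82. Under 0.5 in M82 were 73.7% of all genes. At a mean of at least 10 CPM, 15 of 54 genes higher in the mutant were kept, and 1 of 24 lower. That the mutant had fewer moved genes than M82 was not tested as a difference of responses, and the libraries of the 2 genotypes differ in their spread.

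**Figure D2:**
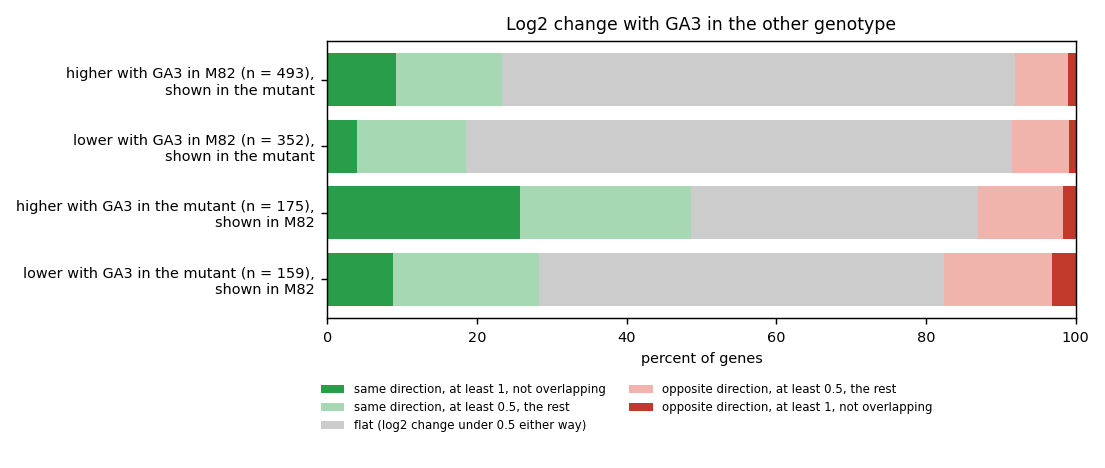
Bars give the percent of the genes moved by GA3 in one genotype (at least 1 log2 unit, libraries not overlapping) that fall in 5 ranges of log2 change in the other genotype. The flat part takes 68.6% and 73.0% of the genes moved in M82, and the strongest same-direction part takes 25.7% of those higher in the mutant, with the same 45 genes as the 9.13% of those higher in M82.

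The lost changes held 338 genes that were higher (2.09% of the 16182) and 257 that were lower (1.59%) after GA3 in M82. Their mean levels were low, with medians of 4.996 CPM for the 338 and 4.15 CPM for the 257 against 10.6 CPM over all 16182 genes, and 100 and 77 of them had a mean of at least 10 CPM. The median change of the 338 was 1.26 log2 units in M82 and 0.02 in the mutant. Their level in the mutant without GA3 was a median 0.93 log2 units above M82 without GA3, and in the mutant with GA3 it was -0.34 units from M82 with GA3. For the 257 the medians were -1.22 in M82 and -0.05 in the mutant, and the mutant lay -0.22 units from M82 without GA3 and 0.98 units above it with GA3. The genotype differences share their M82 libraries with the changes that chose these genes, so an M82 library that is low by chance moves both.

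By library, the 338 genes were lowest in both M82 libraries without GA3, with median levels of -0.53 and -0.64 relative to the mean of the 8 libraries of each gene on the log2(CPM + 1) scale. They were highest in both M82 libraries with GA3, at 0.39 and 0.44. The 4 mutant libraries lay between, from -0.02 to 0.20, with no gap between those with and without GA3. The class rule asks for M82 groups that do not overlap and a small mutant change. The order of the M82 libraries and the missing gap in the mutant therefore largely restate that rule. The 257 genes were spread more unevenly. Their medians in the M82 libraries with GA3 were -0.41 in library 1 and -0.75 in library 2, one of the libraries with the most counts in few genes, and the mutant libraries with GA3 lay at 0.37 and -0.15, on both sides of the mean.

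**Figure D3:**
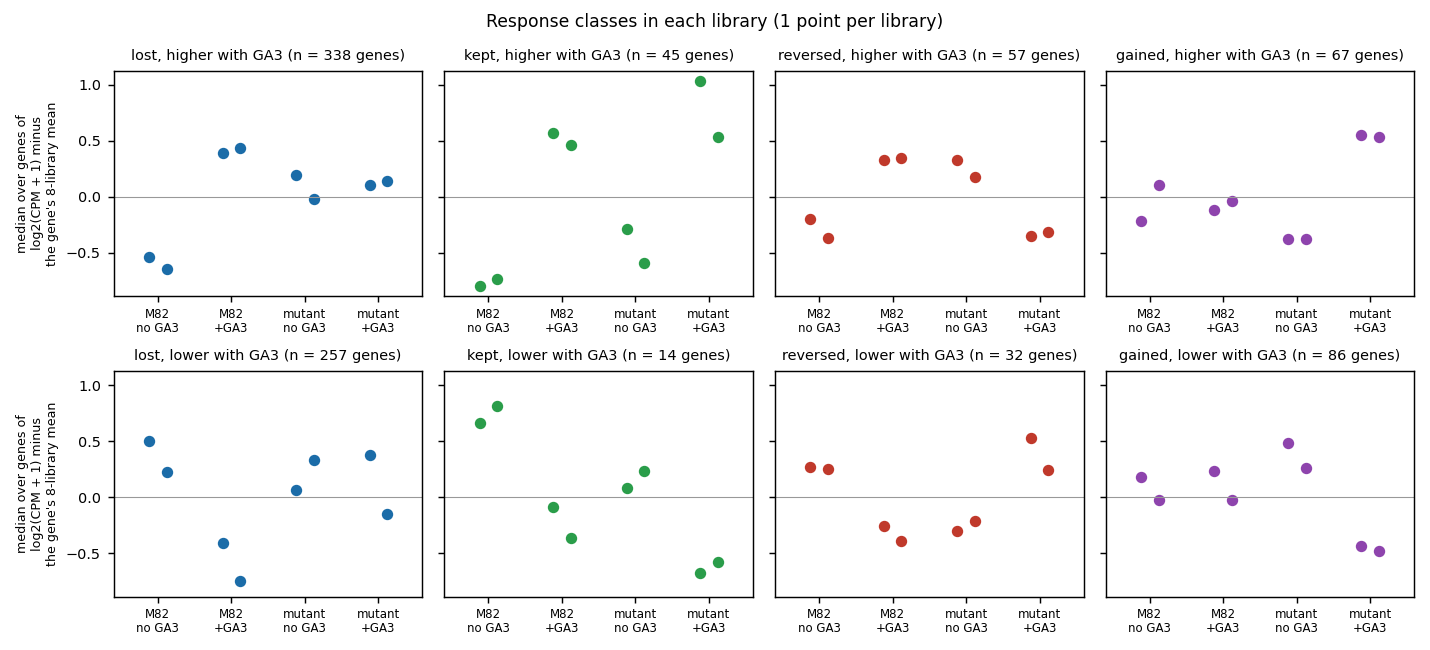
Points give, for each of the 8 libraries, the median over the genes of a response class of log2(CPM + 1) minus the mean of the 8 libraries of that gene. In the class lost and higher with GA3, the M82 libraries without GA3 lie lowest (-0.53 and -0.64) and the 4 mutant libraries lie together between -0.02 and 0.20. The rule that defines the class largely sets this pattern.

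Solyc07g062710.2, on chromosome 7 by its identifier, had the smallest p of the difference among all genes. Its levels were 4.44 and 2.99 CPM in M82 without GA3, 20.9 and 20.0 CPM with GA3, 13.8 and 11.7 CPM in the mutant without GA3, and 14.0 and 10.8 CPM with GA3. The M82 groups lay far apart, and all 4 mutant libraries lay between them, those with GA3 overlapping those without. The GA3 change was 2.45 (SE 0.283) in M82, called by edgeR (adjusted p = 0.0471), and -0.04 (SE 0.260) in the mutant. The difference of -2.49 (SE 0.382) was called by DESeq2 (adjusted p = 0.00193) and not by edgeR (adjusted p = 0.546), and by DESeq2 in 4 of 8 fits that each left out a library.

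Solyc04g017720.2, on chromosome 4, followed the same pattern. It was at 3.40 and 2.99 CPM in M82 without GA3 and at 18.6 and 18.7 CPM with GA3. In the mutant it was at 11.7 and 14.5 CPM without and at 17.3 and 10.2 CPM with GA3, so that all mutant libraries again lay between the M82 groups. The difference of the GA3 effects was -2.47 (SE 0.419; DESeq2 adjusted p = 0.00580, edgeR adjusted p = 0.546), and it was called by DESeq2 in 2 of 8 fits with a library left out.

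Solyc06g008870.2, on chromosome 6, was the lost gene with the smallest p among those lower after GA3. M82 held 28.1 and 50.3 CPM without GA3 and 8.35 and 12.4 CPM with it. All 4 mutant libraries stood near the M82 level with GA3, at 12.4 and 11.98 CPM without and 13.1 and 15.5 CPM with GA3. The change was -1.92 (SE 0.320) in M82 and 0.23 (SE 0.311) in the mutant, and the difference of 2.15 (SE 0.444) was called by DESeq2 (adjusted p = 0.0339) but not by edgeR (adjusted p = 0.665). It was called by DESeq2 in only 1 of the 8 fits that left out a library.

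Solyc12g099900.1, on chromosome 12, was less clearly lost. Its levels were 14.4 and 21.0 CPM in M82 without GA3 and 3.48 and 4.56 CPM with GA3. The mutant libraries held 10.0 and 8.34 CPM without GA3 and 6.82 and 6.75 CPM with it, which did not overlap. The mutant change of -0.43 (SE 0.277) was just inside the limit of 0.5 for a lost change, and neither tool called the difference of 1.70 (SE 0.398; DESeq2 adjusted p = 0.251, edgeR adjusted p = 0.919).

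The reversed changes held 57 genes (0.352% of the 16182) that were higher after GA3 in M82 and lower in the mutant, and 32 (0.198%) with the opposite signs. Median changes of the 57 were 0.83 in M82 and -0.75 in the mutant, and those of the 32 were -0.78 and 0.89. Levels were low, with medians of 2.84 and 1.84 CPM, and 8 and 4 of the genes reached a mean of 10 CPM. The split between the directions depended on the scaling: with library totals alone it was 20 and 60. That scaling moved the median difference over all genes to 0.20 log2 units and the median GA3 change in the mutant to 0.14.

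Solyc01g105360.2, on chromosome 1, was the reversed gene with the smallest p. It was at 10.3 and 14.1 CPM in M82 without GA3 and at 34.5 and 54.5 CPM with GA3. In the mutant the libraries without GA3 were the higher ones, at 39.5 and 26.7 CPM, and those with GA3 held 18.9 and 22.5 CPM. The change was 1.87 (SE 0.313) in M82 and -0.68 (SE 0.301) in the mutant. DESeq2 called the difference of -2.54 (SE 0.433; adjusted p = 0.00205) in all libraries and in 6 of 8 fits with a library left out, the most of the 16 genes named here, while edgeR did not (adjusted p = 0.546).

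Solyc03g113250.2, on chromosome 3, had 4.05 and 1.86 CPM in M82 without GA3 and 9.01 and 10.5 CPM with GA3. The mutant started at the M82 level with GA3, with 11.7 and 8.23 CPM, and held 5.21 and 3.56 CPM after GA3. The difference was -2.88 (SE 0.548; DESeq2 adjusted p = 0.0100, edgeR adjusted p = 0.665), with single-library omissions giving -3.56 to -2.39. DESeq2 called it in 2 of the 8 omissions, with adjusted p-values up to 0.485.

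Among genes lower in M82 and higher in the mutant, Solyc03g119530.2, also on chromosome 3, had the smallest p. Its levels were 4.77 and 5.57 CPM in M82 without GA3 and 1.27 and 0.98 CPM with GA3. In the mutant they were 3.99 and 3.81 CPM without and 5.78 and 6.75 CPM with GA3. Most of the contrast came from M82, with a change of -2.18 (SE 0.341) against 0.68 (SE 0.304) in the mutant. The difference was 2.86 (SE 0.457; DESeq2 adjusted p = 0.00565, edgeR adjusted p = 0.546), called by DESeq2 in 2 of 8 omissions of a library, with adjusted p-values up to 0.235.

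Solyc09g008320.2, on chromosome 9, nearly exchanged its levels. M82 held 27.2 and 35.5 CPM without GA3 and 17.9 and 15.2 CPM with it. The mutant held 13.8 and 11.98 CPM without GA3 and 24.8 and 35.6 CPM with it. The difference was 2.15 (SE 0.365; DESeq2 adjusted p = 0.00565, edgeR adjusted p = 0.546), and DESeq2 called it in 2 of 8 omissions, with adjusted p-values up to 0.220.

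**Figure D4:**
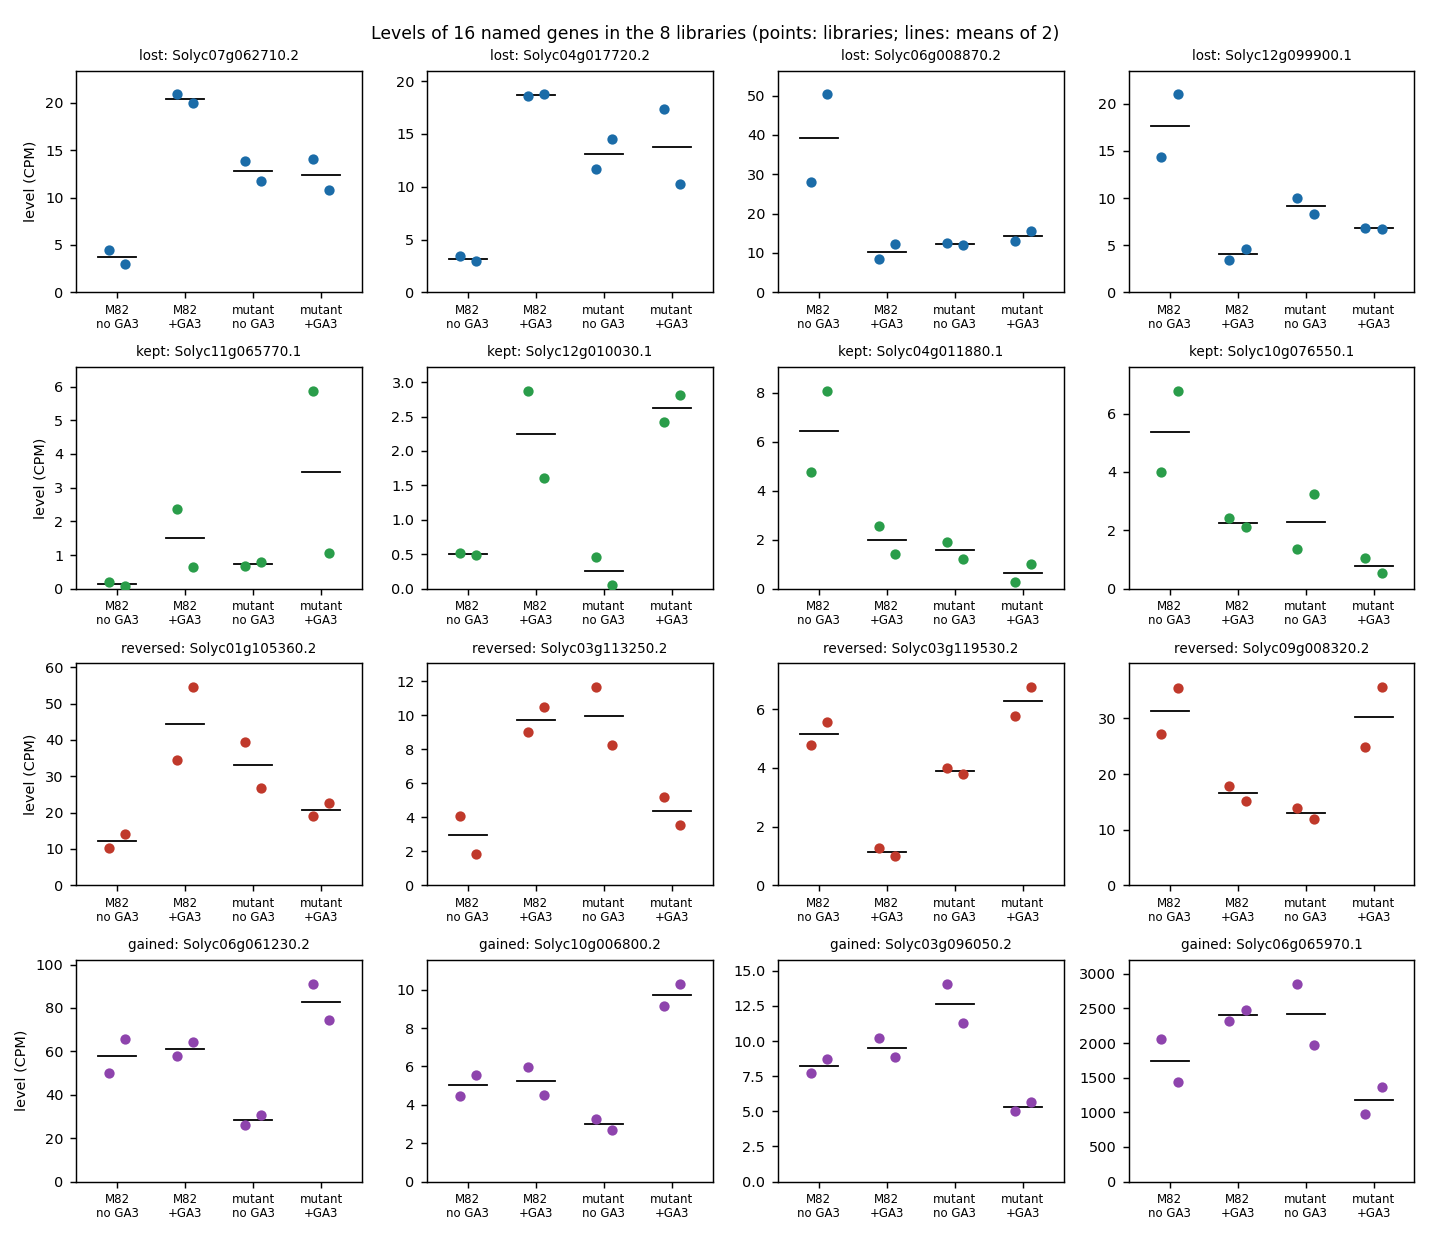
Levels in CPM (linear axis from 0) of the 16 named genes, 1 panel each, with 1 point per library and a line at the mean of each group of 2; rows are the response classes and the left and right pairs of columns are genes higher and lower after GA3. In the top left panel Solyc07g062710.2 stands at 4.44 and 2.99 CPM in M82 without GA3, at 20.9 and 20.0 CPM with it, and between these in all 4 mutant libraries.

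The kept changes held 45 genes higher (0.278% of the 16182) and 14 lower (0.0865%) after GA3 in both genotypes. Median changes of the 45 were 1.71 in M82 (1.68 with the 1 gene without a count in a whole group set to its bound from a floor of 3 counts) and 1.37 in the mutant, and those of the 14 were -1.15 and -1.26. For GA3, DESeq2 called 13 of the 45 in M82, 10 in the mutant and 4 in both, and 2, 2 and 1 of the 14. Over all 16182 genes it called 5 in both. Since the same contrasts chose the genes, nothing is read from these counts. edgeR called none of the 59 in M82 and none in the mutant. At a mean of at least 10 CPM there were 15 genes higher and 1 lower. These 15 changed by 1.124 to 4.026 in M82 and by 1.003 to 3.589 in the mutant, and the change was larger in the mutant for 7 of them. Their differences ran from -2.01 to 1.88 with a median of -0.06, each with an edgeR adjusted p of at least 0.994. The median SE of these differences was 0.549, so a moderate inequality between the genotypes was not detectable here.

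Genes with the largest change in both genotypes had low counts. Solyc11g065770.1, on chromosome 11, had 3 and 1 reads in M82 without GA3 and 43 and 9 with it, and 13 and 14 reads in the mutant without and 124 and 20 with GA3. Its levels were 0.196 and 0.0807 CPM in M82 without GA3, 2.38 and 0.632 CPM with GA3, 0.673 and 0.784 CPM in the mutant without and 5.87 and 1.06 CPM with GA3. In each genotype 1 of the libraries with GA3 lay far above the other. The difference of -1.11 had an SE of 1.41 and changed sign, to 0.189, without M82 library 1 with GA3.

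Solyc12g010030.1, on chromosome 12, likewise rested on few reads, with 9 and 1 in the mutant without GA3. It stood at 0.522 and 0.484 CPM in M82 without GA3 and at 2.87 and 1.61 CPM with it. The mutant values were 0.466 and 0.056 CPM without and 2.42 and 2.82 CPM with GA3, and the libraries with GA3 overlapped between the genotypes. The change was 2.15 (SE 0.698) in M82 and 3.26 (SE 0.724) in the mutant, where DESeq2 called it (adjusted p = 0.0240) and edgeR did not (adjusted p = 0.880). The difference of 1.119 (SE 1.01) was 3.25 without mutant library 1 without GA3 and 0.351 without mutant library 3 without GA3.

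Of the genes lower in both, Solyc04g011880.1, on chromosome 4, had 4.77 and 8.07 CPM in M82 without GA3 and 2.54 and 1.40 CPM with it. The mutant lay below M82 at both treatments, with 1.92 and 1.23 CPM without and 0.284 and 1.01 CPM with GA3. Solyc10g076550.1, on chromosome 10, had 3.98 and 6.78 CPM in M82 without GA3 and 2.43 and 2.105 CPM with it, and 1.35 and 3.25 CPM in the mutant without and 1.04 and 0.532 CPM with GA3. Neither GA3 change of these 2 genes was called by edgeR or DESeq2 in either genotype, and the sign of both differences turned when single libraries were left out.

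The gained changes held 67 genes higher (0.414% of the 16182) and 86 lower (0.531%) after GA3 in the mutant. With library totals as the only scaling this split was 122 and 50. Levels were low, with medians of 2.50 and 2.42 CPM against 10.6 CPM over all 16182 genes. A mean of 10 CPM was reached by 21 of the 67 and 16 of the 86. The median change of the 67 was 1.16 in the mutant and 0.07 in M82, and that of the 86 was -1.23 and -0.05. DESeq2 called 8 of the 67 and none of the 86 for GA3 in the mutant, where it called 0.147% of all genes tested as higher and 0.0109% as lower. It called none of the 153 for the difference between genotypes, against 0.0327% higher and 0.0763% lower over all genes tested. Since the GA3 changes chose these genes, nothing is read from these counts.

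Solyc06g061230.2, on chromosome 6, had the smallest p of the gained genes. Its levels were 26.3 and 30.8 CPM in the mutant without GA3 and 91.2 and 74.6 CPM with GA3. M82 lay between, with 49.8 and 65.7 CPM without and 57.7 and 64.4 CPM with GA3, and its groups overlapped. The change was 1.54 (SE 0.243; DESeq2 adjusted p = 0.000143, edgeR adjusted p = 0.507) in the mutant and 0.08 (SE 0.237) in M82. The difference of 1.46 (SE 0.338) was called by neither tool (DESeq2 adjusted p = 0.110, edgeR adjusted p = 0.919).

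Solyc10g006800.2, on chromosome 10, was at 3.26 and 2.69 CPM in the mutant without GA3 and at 9.14 and 10.3 CPM with it. In M82 it was at 4.44 and 5.57 CPM without and at 5.97 and 4.49 CPM with GA3. The mutant change of 1.71 (SE 0.297) was called by DESeq2 (adjusted p = 0.00793) and the difference of 1.64 (SE 0.418) was not (adjusted p = 0.485).

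Lower after GA3 in the mutant was Solyc03g096050.2, on chromosome 3, with 14.1 and 11.3 CPM without and 5.02 and 5.64 CPM with GA3. Its M82 levels were 7.71 and 8.72 CPM without and 10.2 and 8.84 CPM with GA3, between the mutant groups. The M82 groups did not overlap, with a change of 0.22 (SE 0.250). Solyc06g065970.1, on chromosome 6, was by far the most abundant gene named, with 2858 and 1975 CPM in the mutant without GA3 and 970 and 1372 CPM with GA3. In M82 it was at 2051 and 1441 CPM without and at 2324 and 2476 CPM with GA3, which did not overlap. Its M82 change of 0.46 (SE 0.343) went the opposite way and was just inside the limit of 0.5 for a gained change. The differences of the GA3 effects were -1.47 (SE 0.354; edgeR adjusted p = 0.966) and -1.50 (SE 0.487; edgeR adjusted p = 0.994), and DESeq2 called neither in all libraries.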

How the data were processed

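The members of the comparison, the gene lists and the tests were chosen with earlier results of these data known. Raw read counts per gene, as deposited by the authors, were used for 8 libraries, and 8 further columns of DESeq-normalized counts were not used. Tools named in the submitters' processing notes are DESeq2 1.6.3, HTSeq 0.6.1p1 and TopHat2 2.0.10. Genome build, annotation version and counting options are not given in the sources used here. The library kit, per the labels' protocols, does not mark strand, so overlapping and antisense genes cannot be told apart, and copies of a gene may share reads. Columns numbered 3 show their group but not their sample. The number used here is that of the table.

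Genes were filtered with filterByExpr (minimum count 10), which kept 18340 genes with 99.94% of the counts. They were scaled by TMM and tested with edgeR 4.0.16 (robust quasi-likelihood, 4 groups, no block, 4 residual degrees of freedom) in R 4.3.3. Adjusted p-values are Benjamini-Hochberg over all genes tested, and the SE is the log2 change divided by the square root of F. DESeq2 1.42.0 without independent filtering and limma 3.58.1 (voom) were alternatives. The code was tested on simulated data. No 2 libraries of a group were copies: chi-square per degree of freedom was 35.1 to 81.7. Named genes are the 2 of each class and direction with the smallest unadjusted p of the difference, or for kept changes the largest of the smaller change. The criterion of an annotated function could not be applied.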

Additional observations from a re-analysis of the deposited data

Results flagged for a closer look

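For 7 of the named genes the genotypes differed in their GA3 effect by DESeq2's test of the difference. Of these, 4 belong to the reversed class, whose rule already asks for opposite changes and groups that do not overlap. With the filter on low counts edgeR called none of the 7. Without that filter it called all 7, with adjusted p from 0.00663 to 0.0265. An unadjusted p chose which genes are named. The lost changes among them were those of Solyc07g062710.2 (-2.49 log2 units, mutant minus M82), Solyc04g017720.2 (-2.47) and Solyc06g008870.2 (2.15). The reversed ones were those of Solyc01g105360.2 (-2.54), Solyc03g113250.2 (-2.88), Solyc03g119530.2 (2.86) and Solyc09g008320.2 (2.15).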

How the results depend on the processing

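The count of genes called for the difference of the GA3 effects was 0 with edgeR under RLE scaling, library totals, the stricter filter (5 CPM in 2 libraries) and the replicate block, and 0 with limma-voom. It was 14 without the filter on low counts, 20 with DESeq2 and 32 with DESeq2 and the replicate block. Leaving out single libraries gave 0 to 1 with edgeR, the 1 being without M82 library 1 without GA3, and 2 to 98 with DESeq2. For GA3 in M82, edgeR's 3 calls became 0 with library totals, the stricter filter, limma-voom or the 4 M82 libraries alone, 33 with the replicate block, 92 without the filter, 108 with DESeq2 and 152 with DESeq2 and the block. Single omissions gave 0 to 22. For GA3 in the mutant, 0 calls became 3 in the 4 mutant libraries alone, 9 without the filter, 29 with DESeq2 and 37 with DESeq2 and the block, and 0 to 4 in the single omissions with edgeR. The cause of these shifts was not tested. The block set number 1 against the other library. Deviations of same-numbered libraries correlated at -0.0766 to 0.54 between groups. Whether same-numbered libraries share more than a number was not tested.

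The classes of 595 lost, 59 kept, 89 reversed and 153 gained genes held 344, 29, 34 and 65 with the stricter filter and 177, 16, 12 and 37 at a mean of at least 10 CPM, where fewer genes enter. Other settings on all 8 libraries stayed within 1.5 times. Single omissions gave 424 to 1481 lost, 69 to 112 kept, 139 to 256 reversed and 121 to 362 gained. Lost changes became fewer without any 1 mutant library and more numerous without any 1 M82 library. Gained ones became fewer without any 1 M82 library and more numerous without any 1 mutant library. A group left with 1 library meets the rule of no overlap more easily, and its part in these shifts was not tested. Among the named genes, 3 kept ones changed the sign of their difference in single omissions: Solyc10g076550.1 (-0.833 to 0.499), Solyc04g011880.1 (-0.74 to 1.07) and Solyc11g065770.1 (-2.78 to 0.189). Omissions with DESeq2, its fit with the block and the 10 CPM limit were chosen after seeing the data. With 2 libraries a group, the SE of a difference limits what is detectable.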
